A study of Mus musculus with 35 samples.

Results

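The CXC chemokines described here are Cxcl1, Cxcl2, Cxcl3, Cxcl9, Cxcl10, Cxcl12, Cxcl13 and Pf4 in liver macrophages (macs) of mice on a standard or a Western diet. They were taken by symbol from the count tables, where they are 8 of 54735 symbols. All 8 were among the 13421 genes that exceeded a CPM (counts scaled to equal library totals of 1000000) of 1 in at least 5 of the 35 samples. The levels given below are CPM after each library total was also multiplied by its TMM normalisation factor (0.905 to 1.13), unless plain totals are named. Cxcl3 passed that filter only through 1 moKC sample and 5 CLEC4F- mac samples, so it had to differ between populations to be tested.

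CXC chemokines are small secreted proteins that bind G-protein-coupled receptors and direct the migration of leukocytes. Cxcl1, Cxcl2 and Cxcl3 bind CXCR2 and attract neutrophils, Cxcl9 and Cxcl10 are interferon-induced ligands of CXCR3 that attract T and NK cells, Cxcl12 binds CXCR4 and retains cells in tissues, and Cxcl13 binds CXCR5 and attracts B cells. Pf4 (CXCL4) is known best as a protein of platelet granules. Kupffer cells (KCs), the macs that reside in the liver sinusoids, are a source of several of these chemokines.

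Bulk RNA-seq was measured in sorted macs of C57Bl/6J mice that, per the study's methods, were male and had been on their diet since 5 weeks of age. Resident KCs (ResKCs, CLEC4F+TIM4+) came from 7 standard diet (SD) and 5 Western diet (WD, rich in fat, cholesterol and sugar) samples at 12 weeks and from 6 SD and 6 WD samples at 24 weeks. There were 5 samples of monocyte-derived KCs (moKCs, CLEC4F+TIM4-) and 6 of CLEC4F-TIM4- macs (CLEC4F- macs), only from the WD at 24 weeks, so neither population has an SD control. For the WD group at 12 weeks 1 label field gives the SD, but titles and descriptions give the WD and were followed. The totals were 11568590 to 15163845 counts per sample. Clec4f and Timd4, the genes of the sorting markers, followed the gates: Timd4 averaged 731 CPM in WD ResKCs at 24 weeks but 12.5 CPM in moKCs and only 8.23 CPM in CLEC4F- macs. Clec4f averaged 12607 CPM in those ResKCs and was still at 294 to 1537 CPM in 5 CLEC4F- mac samples and at 5482 CPM in replicate 4, which stood apart. The alignments carry names of 2 schemes whose meaning is not stated, and all 6 SD samples but only 3 of the 6 WD samples of ResKCs at 24 weeks are in the first scheme. The labels do not say that the samples of a group came from separate mice, and p-values then measure only the spread between these samples.

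Of the 8 members, 7 lie on chromosome 5 of mm10 and Cxcl12 lies on chromosome 6, from 117168535 to 117181367 (plus strand, GENCODE M21). Pf4 (90772435 to 90773383), Cxcl3 (90786103 to 90789600), Cxcl1 (90891241 to 90893115) and Cxcl2 (90903871 to 90905938) follow each other on the plus strand. Cxcl9 (92321347 to 92328079) and Cxcl10 (92346638 to 92348889) are neighbours on the minus strand, and Cxcl13 (95956951 to 95961068) is on the plus strand. All are annotated as protein coding. Of the 75-base windows of annotated transcripts, 101 of 2209 for Cxcl2 and 101 of 3637 for Cxcl3 are identical between these genes, so that reads there cannot be told apart and the low Cxcl3 counts are uncertain to that extent. Cxcl10 shares 59 of 2393 windows with Art3, an overlapping gene at 0.226 to 5.39 CPM.

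The stretches before Cxcl1, Cxcl2, Cxcl3 and Cxcl10 are shown because Cxcl1, Cxcl2 and Cxcl10 correlated with each other within groups (r = 0.65 to 0.88), and Cxcl3, the other CXCR2 ligand, carries the same short motif. Each holds bases 250 to 31 before the RefSeq start (GRCm38.p6, found for all 8 members), 5′ to 3′ on the gene's strand. Capitals mark matches on either strand to GGG and TTTCC around any 2 bases or to the degenerate NF-kB consensus, which overlap, to GAAA and GAAA around any 2 bases (interferon-stimulated response element type), or to TGANTCA (AP-1 type, N for any base).
Cxcl1, chr5:90890995-90891214, plus strand: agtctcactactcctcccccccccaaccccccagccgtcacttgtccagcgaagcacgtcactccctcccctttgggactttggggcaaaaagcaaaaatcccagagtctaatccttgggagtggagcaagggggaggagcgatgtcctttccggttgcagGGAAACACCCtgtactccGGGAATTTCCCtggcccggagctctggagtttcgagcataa
Cxcl2, chr5:90903649-90903868, plus strand: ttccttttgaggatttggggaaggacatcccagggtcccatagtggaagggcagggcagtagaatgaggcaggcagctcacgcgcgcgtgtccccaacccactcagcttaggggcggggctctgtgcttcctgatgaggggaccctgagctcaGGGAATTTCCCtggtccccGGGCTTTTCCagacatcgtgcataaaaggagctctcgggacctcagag
Cxcl3, chr5:90785851-90786070, plus strand: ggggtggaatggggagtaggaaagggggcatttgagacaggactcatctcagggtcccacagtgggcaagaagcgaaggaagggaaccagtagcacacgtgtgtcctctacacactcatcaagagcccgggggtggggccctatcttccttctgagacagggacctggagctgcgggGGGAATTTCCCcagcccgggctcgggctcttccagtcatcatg
Cxcl10, chr5:92348920-92349139, minus strand: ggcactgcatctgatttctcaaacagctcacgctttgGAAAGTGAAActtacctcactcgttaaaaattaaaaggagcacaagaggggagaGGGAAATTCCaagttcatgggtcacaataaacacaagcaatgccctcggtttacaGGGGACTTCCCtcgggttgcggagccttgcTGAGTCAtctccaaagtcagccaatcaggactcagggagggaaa

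Cxcl1, Cxcl2 and Cxcl3 each hold the run GGGAATTTCC, which starts 71 bases before the start of Cxcl1, 97 before that of Cxcl2 and 73 before that of Cxcl3. Of the 8, Cxcl10 alone holds the GAAA pair (GAAAGTGAAA) and an AP-1 type match, TGAGTCA, besides matches of the NF-kB consensus. Among 32851 RefSeq promoter windows of the same length, 1.17% hold GGG and TTTCC around 2 bases, 6.34% the NF-kB consensus, 2.63% the GAAA pair and 6.12% TGANTCA. In the windows of Pf4, Cxcl9, Cxcl12 and Cxcl13 these letters were not found. A match is a description of the letters and not a binding site.

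Cxcl13 had the highest level of the 8 members per kilobase of exon in every ResKC group and had the lowest log2 fold change of the 8 between the diets at 24 weeks and between CLEC4F- macs and WD ResKCs. Its group mean per kilobase was 443 CPM in SD and 264 CPM in WD ResKCs at 12 weeks, 608 CPM in SD ResKCs at 24 weeks, 103 CPM in WD ResKCs at 24 weeks, 48.1 CPM in moKCs, and 5.26 CPM was left in CLEC4F- macs. Pf4 took the highest rank in moKCs, at 111 CPM per kilobase, and in CLEC4F- macs, at 181 CPM per kilobase, and Cxcl3 had the lowest rank in all 6 groups. In WD ResKCs at 24 weeks the samples of Cxcl13 and of Pf4, the next member at 59.1 CPM per kilobase, overlapped. The plot of the levels by sample shows the opposite courses of Cxcl13 and Pf4.

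**Figure D1:**
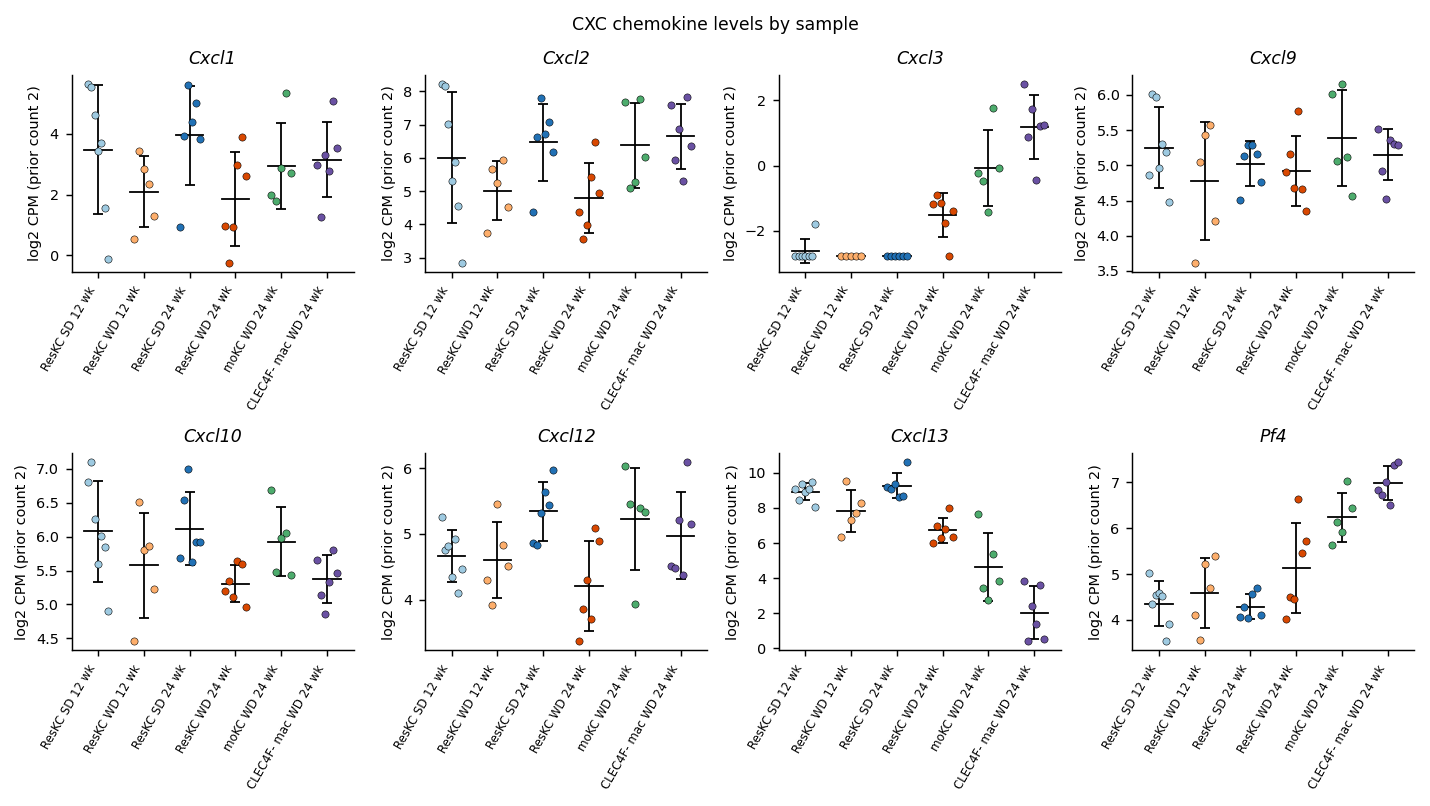
Log2 CPM (prior count 2, vertical axis) of each CXC chemokine in every sample, by group (SD, standard diet; WD, Western diet; wk, weeks). Points are samples and bars are the mean ± SD; Cxcl13 steps down and Pf4 and Cxcl3 step up from SD ResKCs at 24 weeks to CLEC4F- macs, while Cxcl1 and Cxcl2 spread widely within groups.

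In SD ResKCs at 24 weeks, Cxcl13 lay between 401 and 1588 CPM with a median of 559 (699 ± 447, SD, n = 6). In WD ResKCs at 24 weeks it lay between 64.3 and 253 CPM with a median of 97.0 (119 ± 69.5, SD, n = 6). All WD samples were below all SD samples. Cxcl13 fell by 2.56 on the log2 scale (standard error 0.64), with an adjusted p of 0.0115 from the quasi-likelihood test of edgeR and the Benjamini-Hochberg method, which also gave the values that follow. In that comparison 4 of the 8 members were called at an adjusted p under 0.05, Cxcl13 and Cxcl12 lower and Pf4 and Cxcl3 higher, against 8.71% of all genes tested (3.87% lower and 4.84% higher). Lower values without overlap were found for 1.91% of the genes. The Cxcl13 call held in 9 of 11 other settings and with each sample left out. In such bulk samples, fewer cells of a type and less RNA per cell cannot be told apart. At 12 weeks, Cxcl13 was at 80.1, 753, 161, 210 and 314 CPM in the 5 WD samples and between 269 and 714 CPM, with a median of 541, in the 7 SD samples. Those groups overlapped, with WD replicate 2 above every SD sample, and the log2 fold change of -0.75 (95% interval -2.02 to 0.53, adjusted p = 0.765) did not pass. The difference between the diet effects at 24 and 12 weeks was -1.81 (95% interval -3.57 to -0.055, adjusted p = 0.339) and did not pass either, nor did that of any other member (0.283% of all genes tested). Cxcl13 differed by 0.46 between SD ResKCs at 24 and 12 weeks (adjusted p = 0.853) and by -1.36 between WD ResKCs at these times (adjusted p = 0.244). No member was called between the times on the SD (0% of all genes tested) or on the WD (3.26%), where DESeq2 called 1, Cxcl3.

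The fall of Cxcl13 went further across the populations. CLEC4F- macs had between 1.16 and 14.3 CPM with a median of 3.82 (6.04 ± 5.71, SD, n = 6), below every WD ResKC sample. Compared with WD ResKCs it fell by 4.30 (standard error 0.73, adjusted p = 1.7e-05), a 19.7-fold difference, and it passed in all 11 other settings and with each sample left out. In moKCs Cxcl13 was at 204, 10.8, 6.66, 41.0 and 14.2 CPM. Replicate 1 was within the range of WD ResKCs and the other 4 moKC samples were below all of them. The log2 fold change of moKCs against WD ResKCs was -1.09 (adjusted p = 0.443), and without moKC replicate 1 it was -2.71 (adjusted p = 0.0099). The same sample bore on CLEC4F- macs against moKCs, where the log2 fold change of -3.21 (adjusted p = 0.0015) became -1.59 (adjusted p = 0.087) without it. In moKC replicate 1 the ResKC marker Marco was at 2.64 CPM, the lowest of the 5 moKC samples. Timd4 was at 9.16 CPM there, within the range of the others (2.85 to 30.3 CPM). Its Cd163, at 113 CPM, was the highest of that group but below every WD ResKC sample at 24 weeks (at least 879 CPM). Clec4f (11605 CPM) and the immediate-early score of this sample were also the highest of that group.

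Among ResKCs, Cxcl13 varied with Marco, a scavenger receptor that marks a subset of ResKCs. SD replicate 6 at 24 weeks had the highest Cxcl13 (1588 CPM) and Marco (4076 CPM) of its group, and WD replicate 2 at 12 weeks had both the highest Cxcl13 (753 CPM) and the highest Marco (3964 CPM) of its own. Over the 24 ResKC samples the Pearson r of the deviations from group means was 0.81. Marco was chosen for this after its values were seen. Over all 35 samples r within groups was 0.28 for Marco, 0.38 for Timd4 and 0.30 for Cd163. It was -0.0015 for Vsig4, -0.15 for Folr2, -0.27 for Clec4f and -0.42 for Cd5l. Marco itself did not pass between WD and SD ResKCs at 24 weeks (log2 fold change -0.80, adjusted p = 0.385), nor did the other 6 Kupffer cell markers. Over all 35 samples the genes most like Cxcl13 were Fxyd2 (r = 0.93), Cplx2 (0.92) and Plbd1 (0.92).

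Cxcl12, a ligand that tissue stromal cells are known to make, was the other member that was lower on the WD at 24 weeks. It lay between 28.4 and 62.8 CPM with a median of 41.5 in SD ResKCs (42.1 ± 13.0, SD, n = 6) and between 10.1 and 34.0 CPM with a median of 17.0 in WD ResKCs (20.1 ± 9.66, SD, n = 6). The groups overlapped, and Cxcl12 fell by 1.07 (standard error 0.33, adjusted p = 0.0363). The call was lost when 1 of 7 of these 12 samples was left out, namely SD replicates 4, 5 and 6 and WD replicates 1 to 4, with adjusted p up to 0.0835. Of the 11 other settings, 8 kept it (adjusted p up to 0.369). At 12 weeks both diets averaged close to 26 CPM (25.8 ± 11.1, SD, n = 5, and 26.0 ± 7.03, SD, n = 7; 95% interval of the log2 fold change -0.68 to 0.66), and the difference between the diet effects at the 2 times was -1.06 (adjusted p = 0.289). On the WD at 24 weeks moKCs had 65.0, 43.9, 15.1, 42.0 and 40.0 CPM and CLEC4F- macs between 20.7 and 68.3 CPM with a median of 29.0. Compared with WD ResKCs the log2 fold changes were 1.04 (adjusted p = 0.0885) and 0.77 (adjusted p = 0.0658). The latter passed in 5 of the 12 fits that left out a sample (ResKC replicates 5 and 6, CLEC4F- mac replicates 1, 2 and 4), and was 0.88 (adjusted p = 0.0385) without CLEC4F- mac replicate 4, which stood apart in Clec4f.

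Cxcl12 varied with some genes of stellate cells and fibroblasts, which surround the sinusoids, and less with others. The gene most like it over the 35 samples was Dcn (r = 0.92), which encodes the matrix proteoglycan decorin, followed by Colec11 (0.86) and Pth1r (0.84). Dcn fell by 1.26 on the WD at 24 weeks (adjusted p = 0.0251), rose by 1.34 in moKCs (adjusted p = 0.0413) and rose by 1.10 in CLEC4F- macs (adjusted p = 0.0164) against WD ResKCs. Within groups, r with Cxcl12 was 0.92 for Dcn, 0.75 for Reln, 0.73 for Lrat, 0.66 for Ecm1, 0.65 for Col3a1, 0.56 for Des, 0.28 for Col1a2 and 0.14 for Col1a1. Of the 8 stellate markers listed and tested, Dcn was the 1 called between the diets at 24 weeks, the median log2 fold change of the list was -0.036, and the summed level of the list ranged from 276 to 551 CPM in SD and from 287 to 412 CPM in WD ResKCs. Of the 7 sinusoidal endothelial markers, 1 fell in that comparison, and r of Cxcl12 with Kdr within groups was 0.32. The part of other cells in the Cxcl12 values was not tested.

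**Figure D2:**
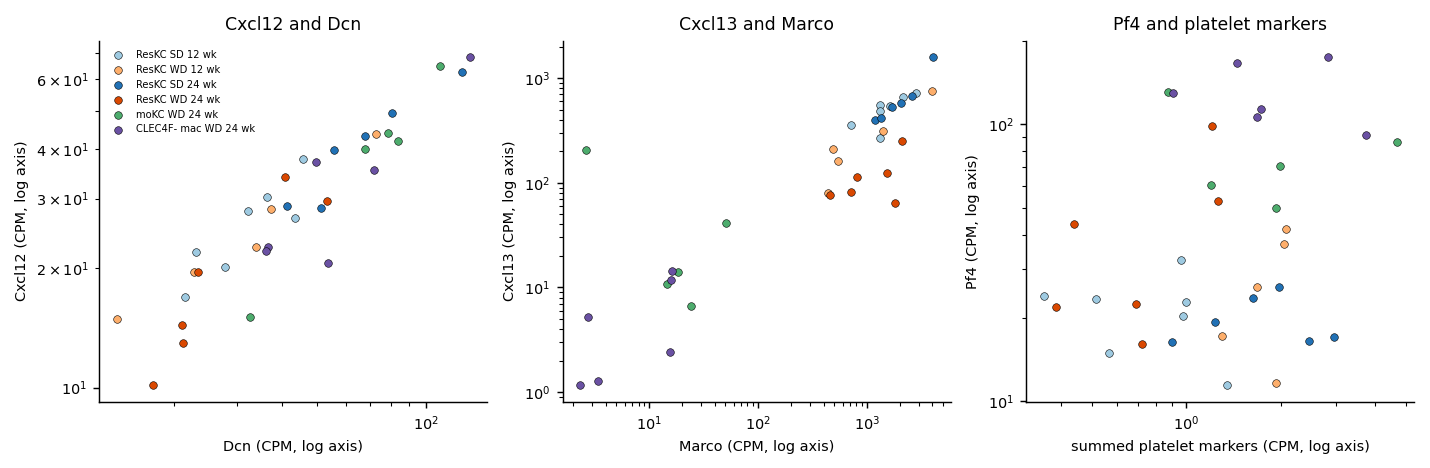
Cxcl12 against Dcn, Cxcl13 against Marco and Pf4 against the sum of 8 platelet markers, in CPM on log axes, with each point a sample coloured by group. Cxcl12 follows Dcn (r = 0.92 within groups), moKC replicate 1 sits alone with high Cxcl13 (204 CPM) at low Marco (2.64 CPM), and Pf4 varies at platelet sums of at most 4.68 CPM.

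Pf4 took the opposite course to Cxcl13. It lay between 16.4 and 25.8 CPM with a median of 18.2 in SD ResKCs at 24 weeks (19.8 ± 4.01, SD, n = 6) and between 16.1 and 98.9 CPM with a median of 33.1 in WD ResKCs (42.6 ± 31.0, SD, n = 6). Replicates 4, 5 and 6 of the WD samples were above the SD range and the others were not. Pf4 rose by 1.11 (standard error 0.34, adjusted p = 0.0363). The call was lost in 7 of the 12 fits that left out a sample (SD replicates 1, 2, 3, 4 and 6, WD replicates 4 and 6). Of the 11 other settings, 7 kept it. Without WD replicate 4, the highest, the log2 fold change was 0.67 (adjusted p = 0.189), and with the naming scheme as a covariate it was 0.76 (adjusted p = 0.188). Within the first naming scheme, with 3 WD samples, it was 0.036 (adjusted p = 0.962). At 12 weeks Pf4 was at 17.2, 11.6, 36.9, 25.9 and 41.8 CPM on the WD and between 11.4 and 32.5 CPM on the SD (log2 fold change 0.32, 95% interval -0.37 to 1.02, adjusted p = 0.833).

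In moKCs Pf4 was at 49.8, 70.7, 60.5, 131 and 86.6 CPM, and in CLEC4F- macs it lay between 91.4 and 175 CPM with a median of 122 (130 ± 33.5, SD, n = 6). CLEC4F- macs were above every WD ResKC sample except replicate 4. Against WD ResKCs Pf4 rose by 1.61 in CLEC4F- macs (standard error 0.33, adjusted p = 0.00027), and it passed in all 11 other settings and with each sample left out. In moKCs the log2 fold change was 0.90 (95% interval 0.20 to 1.60, adjusted p = 0.156), and without WD replicate 4 it was 1.35 (adjusted p = 0.0127). Platelet markers stayed near 0: the sum of the 8 listed genes reached at most 4.68 CPM in any sample, with ranges of 0.383 to 1.26 CPM in WD ResKCs and 0.904 to 3.72 CPM in CLEC4F- macs, and Gp1bb had no count in any sample. The 2 of these genes that could be tested were called in the same direction as Pf4 in CLEC4F- macs: Itga2b, the platelet integrin, rose by 2.18 from 0.124 to 0.609 CPM (adjusted p = 0.0233), and Ppbp is given next. That call of Itga2b held in 9 of the 12 fits that left out a sample (adjusted p up to 0.0535). In moKCs Itga2b rose to 1.25 CPM (adjusted p = 0.0129), while on the WD at 24 weeks it fell by 2.68 (adjusted p = 0.0209), opposite to Pf4. Ppbp, the platelet chemokine whose gene precedes Pf4 on the chromosome, averaged 1.11 CPM in CLEC4F- macs and 0.271 CPM in WD ResKCs (log2 fold change 2.00, adjusted p = 0.0242). It passed the filter in part through CLEC4F- mac samples, so this rise was partly set by the filter. With a sample left out, Ppbp was called in 7 of the 9 fits in which it passed the filter (adjusted p up to 0.0567). Within groups r with Pf4 was 0.12 for Ppbp and -0.032 for Itga2b, and the part of platelets in the Pf4 values was not tested. Over all 35 samples the genes closest to Pf4 were Lat2 (r = 0.90), Ms4a4a (0.90) and AI467606 (0.89).

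Cxcl3 was at the limit of detection in ResKCs and above it in the recruited populations. It had 0 counts in all 5 WD samples at 12 weeks and all 6 SD samples at 24 weeks, and 2 counts in 1 of the 7 SD samples at 12 weeks. In WD ResKCs at 24 weeks it had 4, 5, 4, 2, 0 and 3 counts, so 5 of the 6 samples had a count. Taken over the groups by plain totals, the level from these 18 counts was 6.56-fold that of the 3 counts that a count of 0 allows in the SD group at 24 weeks. That ratio leaves out the counting error of the 18 counts and the spread between samples. The edgeR test called Cxcl3 between these groups (adjusted p = 0.0189), a call lost with limma-voom (adjusted p = 0.128) and with the replicate block (adjusted p = 0.0508). In moKCs Cxcl3 was at 0.709, 0.569, 0.225, 3.26 and 0.804 CPM, and in CLEC4F- macs it lay between 0.584 and 5.54 CPM with a median of 2.19. Every CLEC4F- mac sample was above every WD ResKC sample. Cxcl3 rose by 3.42 in CLEC4F- macs against WD ResKCs (standard error 0.68, adjusted p = 0.00033), and in moKCs the log2 fold change was 2.22 (adjusted p = 0.0884). Because Cxcl3 passed the filter only through samples of these recruited populations, a higher level there was a condition of being tested. CLEC4F- macs and moKCs differed by 1.20 (adjusted p = 0.231), or by 2.13 (adjusted p = 0.0254) without moKC replicate 4. Genes most like Cxcl3 were Slc7a11 (r = 0.94), the cystine transporter, Tpm4 (0.93) and Clic4 (0.93).

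Of the 8 members, 4 were called between CLEC4F- macs and WD ResKCs (33% of all genes tested, 16.1% higher and 17% lower), none between moKCs and WD ResKCs (2.99%) and 1, Cxcl13, between CLEC4F- macs and moKCs (16.4%, of which 9.34% lower). Without overlap, as Cxcl13 and Cxcl3 in CLEC4F- macs against WD ResKCs, 8.81% of genes were lower and 7.18% higher there. Cxcl3 is in these counts although it passed the filter only through its level in moKC and CLEC4F- mac samples. Between moKCs and WD ResKCs 5 members had an unadjusted p under 0.05 with edgeR, as had 2135 of the 13421 genes tested. DESeq2 called 1 there, Cxcl12 (adjusted p = 0.0409), and so did limma-voom, Pf4 (adjusted p = 0.0468).

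Cxcl1 and Cxcl2, the neutrophil attractants, varied more within groups than between them. In SD ResKCs at 12 weeks Cxcl1 lay between 0.779 and 50.3 CPM with a median of 12.9, a 64.5-fold range within a group, and Cxcl2 between 7.01 and 302 CPM with a median of 58.4, a 43.1-fold range. Replicate 7 had the lowest level of both and replicate 1 the highest. At 24 weeks Cxcl2 lay between 20.8 and 224 CPM with a median of 102 in SD ResKCs (109 ± 68.1, SD, n = 6) and between 11.7 and 89.1 CPM with a median of 25.8 in WD ResKCs (35.1 ± 28.7, SD, n = 6). Cxcl1 lay between 1.75 and 48.7 CPM with a median of 17.9 in SD and between 0.689 and 14.8 CPM with a median of 3.86 in WD ResKCs. These groups overlapped, and the log2 fold changes of -1.64 for Cxcl2 (95% interval -3.03 to -0.26, adjusted p = 0.125) and -2.03 for Cxcl1 (95% interval -3.69 to -0.37, adjusted p = 0.114) did not pass. Within the first naming scheme they were -2.76 (adjusted p = 0.0281) and -3.93 (adjusted p = 0.016). At the earlier time these differences were -1.71 (adjusted p = 0.493) and -2.00 (adjusted p = 0.503). No member was called between the diets at that time (0.0373% of all genes tested), and Cxcl1 and Cxcl2 were the 2 members with an unadjusted p under 0.05, as had 1172 of the 13421 genes tested. DESeq2 and limma-voom called no member there.

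On the WD at 24 weeks Cxcl2 was at 205, 34.4, 38.9, 220 and 64.8 CPM in moKCs and between 39.4 and 229 CPM with a median of 99.1 in CLEC4F- macs (120 ± 75.5, SD, n = 6). Against WD ResKCs it rose by 1.78 in CLEC4F- macs (standard error 0.68, adjusted p = 0.0432), a call close to the limit. It was lost without ResKC replicate 1, 2, 3, 4 or 6 or CLEC4F- mac replicate 1, 3 or 5, with adjusted p up to 0.107. It held in only 5 of 11 other settings, and was lost with limma-voom (adjusted p = 0.0617), no filter (0.0599), robust dispersion (0.0553), the naming scheme (0.0645) or either score (0.318 and 0.814). In moKCs the log2 fold change was 1.69 (95% interval 0.25 to 3.12, adjusted p = 0.209). For Cxcl1 the log2 fold changes were 1.13 in CLEC4F- macs (adjusted p = 0.312) and 1.17 in moKCs (adjusted p = 0.540), where replicate 4 alone had 40.6 CPM and without it the value was -0.073.

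Cxcl1 and Cxcl2 moved together, and with an immediate-early score, the mean log2 CPM of Fos, Jun, Egr1 and Atf3, transcription factor genes induced within minutes of a stimulus, and of the heat-shock genes Hspa1a and Hspa1b. Such genes are also known to respond when tissue is dissociated, and per the study's methods the livers were digested with collagenase at body temperature before sorting. The part of that step in the values given here was not tested. Deviations from group means of Cxcl1 and Cxcl2 correlated with r = 0.88 over the 35 samples. For Cxcl2 against the score Pearson's r was 0.91 (p = 1e-05, the smallest value that 100000 within-group permutations can give, adjusted p = 8e-05) and Spearman's rho 0.91 (adjusted p = 8e-05). Without the 2 samples farthest from the median score, r was 0.87. Within the single groups of at least 6 samples it was 0.97, 0.78, 0.96 and 0.88 in SD ResKCs at 12 weeks, SD and WD ResKCs at 24 weeks and CLEC4F- macs. For Cxcl1, r was 0.78 (adjusted p = 0.00016) and rho 0.72 (adjusted p = 0.0002, permutation tests), r was 0.67 without those 2 samples, and within the same groups it was 0.96, 0.86, 0.92 and 0.40. These were 2 of 8 relations computed, 1 for each member.

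**Figure D3:**
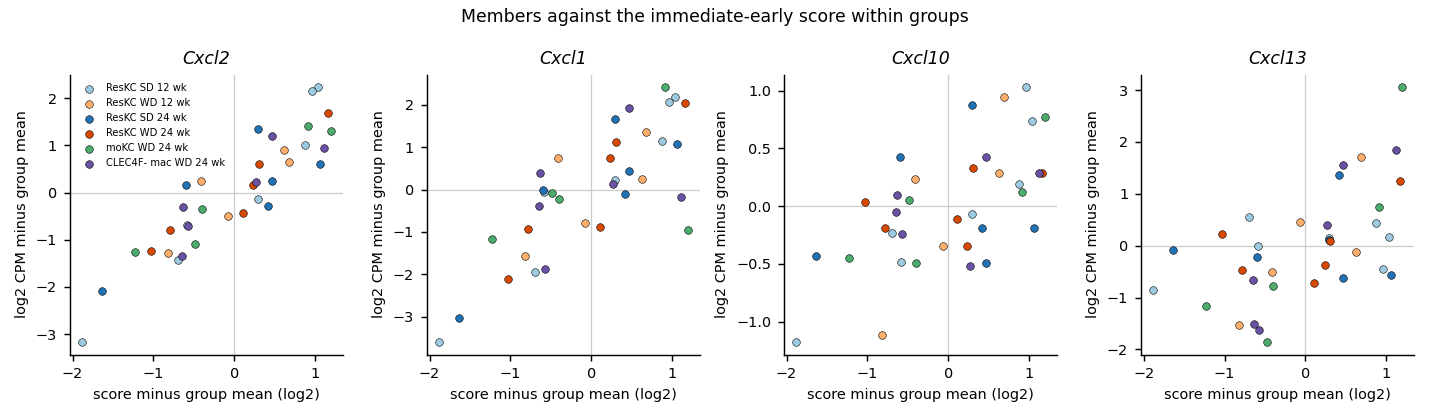
Log2 CPM of Cxcl2, Cxcl1, Cxcl10 and Cxcl13 minus the group mean (vertical axes) against the immediate-early score minus the group mean (horizontal axes, log2), with each of the 35 samples a point coloured by group. Cxcl2 lies closest to a line (r = 0.91), followed by Cxcl1 (0.78), Cxcl10 (0.62) and Cxcl13 (0.58).

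Cxcl10 (r = 0.62, adjusted p = 0.0008; rho = 0.59, adjusted p = 0.0019; 0.52 without the 2 samples) and Cxcl13 (r = 0.58, adjusted p = 0.00069; rho = 0.57, adjusted p = 0.0019; 0.62 without them) also passed this permutation test. Within the single groups Cxcl10 was less even, with r between 0.080 in SD ResKCs at 24 weeks and 0.93 in SD ResKCs at 12 weeks, and Cxcl13 ranged from -0.0060 in SD ResKCs at 24 weeks to 0.94 in CLEC4F- macs. For Cxcl9 (r = 0.41, adjusted p = 0.0301; rho = 0.40, adjusted p = 0.0401) and Cxcl12 (r = 0.41, adjusted p = 0.0301; rho = 0.42, adjusted p = 0.031) the permutation test was passed by less, and r was 0.28 and 0.39 without the 2 samples. Pf4 (r = 0.30, adjusted p = 0.0942; rho = 0.37, adjusted p = 0.0466; 0.26 without them) passed by rank only. Cxcl3 did not pass (r = 0.074, adjusted p = 0.705; rho = -0.059, adjusted p = 0.754; 0.22 without them).

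The score itself was lower on the WD at 24 weeks, at 6.97 ± 0.80 (SD, n = 6) against 8.58 ± 0.96 (SD, n = 6) in SD ResKCs, a difference of -1.61 on the log2 scale (two-sided exact permutation p = 0.0195, adjusted over 7 comparisons p = 0.121). CLEC4F- macs, at 8.05 ± 0.73 (SD, n = 6), were 1.08 above WD ResKCs (exact permutation p = 0.0346, adjusted p = 0.121). Neither difference passed after adjustment, and the groups overlapped in both comparisons. The smallest p that groups of 6 and 6 allow is 0.0022. Single genes of the score were called: Fos fell by 2.24 (adjusted p = 0.00888), Egr1 by 2.22 (adjusted p = 0.0308) and Jun by 1.43 (adjusted p = 0.0378) on the WD at 24 weeks, and Fos rose by 1.83 (adjusted p = 0.00728) and Atf3 by 2.19 (adjusted p = 0.0007) in CLEC4F- macs against WD ResKCs.

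With the score as a covariate in the fit, the diet differences of Cxcl1 and Cxcl2 at 24 weeks changed sign, to 0.13 (adjusted p = 0.936) and 0.30 (adjusted p = 0.702). That of Cxcl13 became -1.52 (adjusted p = 0.129) and that of Cxcl12 -0.62 (adjusted p = 0.33), so that neither passed, while Pf4 stayed called at 1.44 (adjusted p = 0.0244). Between CLEC4F- macs and WD ResKCs the log2 fold change of Cxcl2 became 0.47 (adjusted p = 0.318), whereas Cxcl13 at -5.29 (adjusted p = 1.6e-07) and Pf4 at 1.41 (adjusted p = 0.00135) stayed called. Cxcl3 also stayed called at 2.96 (adjusted p = 0.00839), but its higher level in the recruited populations was a condition of being tested. Cxcl13 then also passed between moKCs and WD ResKCs, at -2.18 (adjusted p = 0.0481). The mean score differs between the groups, although no such difference passed after adjustment, so its part in these differences and that of diet or population cannot be told apart.

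**Figure D4:**
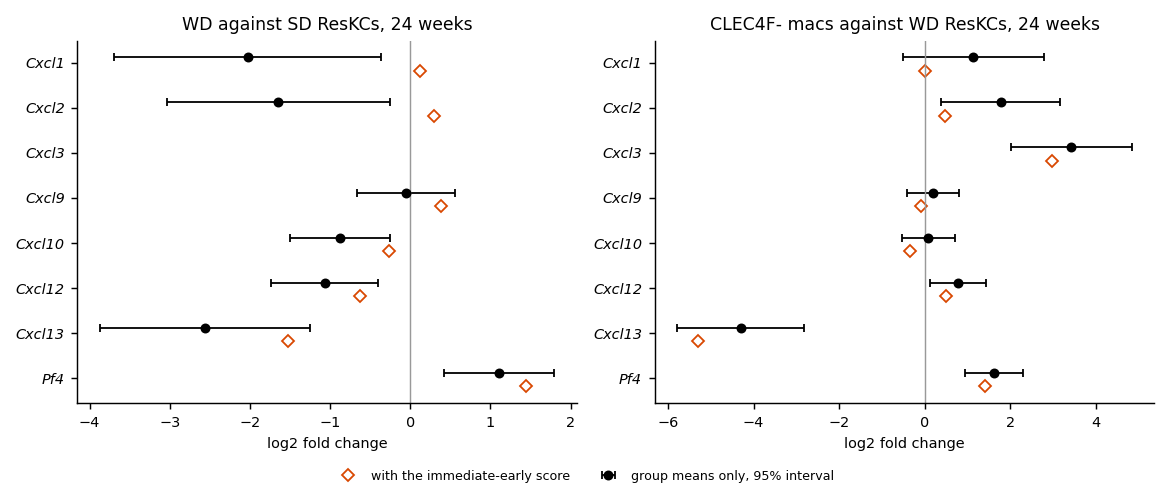
Log2 fold changes (horizontal axes) of the CXC chemokines between WD and SD ResKCs and between CLEC4F- macs and WD ResKCs at 24 weeks. Filled points with 95% intervals are from the fit of group means and open diamonds from the fit with the immediate-early score as a covariate; Cxcl1 and Cxcl2 cross 0 in the diet comparison, Cxcl13 and Pf4 keep their sides in both panels, and Cxcl3 is left out of the diet panel because SD ResKCs had no count.

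Cxcl9 and Cxcl10, the interferon-induced pair, were called in none of the 8 comparisons. Cxcl9 averaged between 30.8 CPM (WD ResKCs at 12 weeks) and 45.4 CPM (moKCs) in the 6 groups. Its log2 fold changes were -0.051 between the diets at 24 weeks (95% interval -0.66 to 0.56) and 0.19 between CLEC4F- macs and WD ResKCs (95% interval -0.43 to 0.80). Cxcl10 lay between 49.2 and 127 CPM with a median of 60.7 in SD ResKCs at 24 weeks (73.7 ± 30.6, SD, n = 6) and between 31.0 and 49.7 CPM with a median of 38.5 in WD ResKCs (40.1 ± 7.49, SD, n = 6). Of the WD samples, only replicate 4 reached the SD range. The log2 fold change of -0.88 (95% interval -1.51 to -0.25) missed the limit (adjusted p = 0.0672), passed when only these 2 groups were fitted (adjusted p = 0.0233), and was -0.26 (adjusted p = 0.66) with the score as a covariate. Between CLEC4F- macs and WD ResKCs it was 0.080 (95% interval -0.55 to 0.71). Within groups Cxcl9 and Cxcl10 correlated with r = 0.69, and Cxcl10 and Cxcl2 with r = 0.77.

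The genes most like Cxcl9 were Ccl8 (r = 0.74) and the interferon-inducible GTPases Irgm1 (0.67) and Igtp (0.65). Those most like Cxcl10 were Nfkbiz (0.83), Ccl2 (0.83) and Nfkbia (0.82), the latter an inhibitor of NF-kB that NF-kB itself induces. Those most like Cxcl2 were Ccrl2 (0.96), Dusp2 (0.96) and Gadd45b (0.95), and those most like Cxcl1 were Cxcl2 (0.87), Dusp2 (0.85) and Ccrl2 (0.81). All these values describe log2 CPM over the 35 samples, which share groups.

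Of 16 NF-kB response genes, 6 fell and none rose on the WD at 24 weeks, against 3.87% of all genes tested lower and 4.84% higher. Among the 6, Il1b fell by 1.92 (adjusted p = 0.0215), Il6 by 2.45 (adjusted p = 0.0337), Ier3 by 1.78 (adjusted p = 0.00741) and Nfkbia by 1.07 (adjusted p = 0.0262). The median log2 fold change of the list was -1.10, that of the 8 chemokines -0.97 and that of all genes tested 0.0038. In CLEC4F- macs against WD ResKCs 6 of these NF-kB genes rose, with Ptgs2 up by 4.16 (adjusted p = 0.00055) and Il1b by 1.41 (adjusted p = 0.0374), and 1, Icam1, fell. Of all genes tested 16.1% were higher and 17% lower there. Of 17 interferon response genes, 1 rose (Mx1) and 1 fell (Irf1) on the WD at 24 weeks, and 3 rose and 4 fell in CLEC4F- macs, against 8.71% and 33% of all genes tested.

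Other CXC chemokines and the receptors gave the ligands' context. Cxcl16, a membrane-bound ligand of CXCR6, averaged 322 to 454 CPM in the 6 groups and rose by 0.50 in CLEC4F- macs against WD ResKCs (adjusted p = 0.0006). Cxcl14 rose by 1.38 there, from 15.9 to 41.5 CPM (adjusted p = 0.00046). With Ppbp, these were the 3 of 7 other CXC chemokines that could be tested. All 3 rose in that comparison, where 16.1% of all genes tested rose, while none was called between the diets. Ppbp passed the filter in only 9 of the 12 fits that left out a sample, not without CLEC4F- mac replicate 1, 4 or 6, and was called in 7 of the 9. Its rise was thus partly set by the filter. Cxcl15 had no count in any group, and Cxcl5, Cxcl11 and Cxcl17 averaged at most 0.341 CPM. Among 8 receptors, 6 were tested and 3 rose in CLEC4F- macs, against 16.1% of all genes tested. Cxcr4, the receptor of CXCL12, rose by 3.16 (7.56 to 67.7 CPM, adjusted p = 2.3e-06, without overlap). Cxcr5, the receptor of CXCL13, rose by 2.25 (0.767 to 3.66 CPM, adjusted p = 0.0219), and Cxcr6 by 2.00 (0.53 to 2.16 CPM, adjusted p = 0.0341). The Cxcr5 value rests on CLEC4F- mac replicate 1, at 17.0 CPM: the medians were 1.19 and 0.689 CPM, and without it the log2 fold change was 0.39 (adjusted p = 0.712). Cxcr6 was not called in 3 of the 12 fits that left out a sample (adjusted p up to 0.112), while Cxcr4 was called in all 12. The neutrophil receptor Cxcr2 averaged at most 0.144 CPM in any group. CLEC4F- macs also had more RNA of other leukocytes: all 4 B cell markers rose against WD ResKCs, with Cd79a at 12.1 against 2.62 CPM (medians 6.06 and 2.64), as did all 3 T and NK cell markers that were tested. The listed T and NK cell markers summed to 1.05 to 4.10 CPM in these ResKCs and to 5.56 to 19.9 CPM in CLEC4F- macs. At such levels the filter favours genes that are higher in CLEC4F- macs, so their rise was partly set by it. Without CLEC4F- mac replicate 1, Cd79a (log2 fold change 1.01, adjusted p = 0.14) and Ms4a1 (0.78, adjusted p = 0.152) were not called, and Trac, of T cells, was called in only 4 of the 12 fits that left out a sample. The part of those cells in the Cxcr5 and Cxcr6 values was not tested.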

How the data were processed

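Groups of the 35 samples were taken from titles and descriptions. The authors mapped single reads of 75 bases to mm10 and counted them per gene, and the deposited values are raw counts per gene symbol, without a filter. The submitters' processing notes name FastQC 0.11.9, HISAT2 2.2.0, SAMtools 1.10 and featureCounts 2.0.0. Annotation, strand setting and the handling of multi-mapping reads are not given in the sources used here. Positions are from GENCODE M21.

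The 13421 genes that exceeded 1 CPM in 5 or more samples were scaled with TMM and tested with edgeR 4.0.16 (R 4.3.3) in 1 fit of 6 group means, adjusted over all genes tested and called at an adjusted p under 0.05. Totals were 11568590 to 15163845 counts per sample, so 3 counts correspond to 0.198 to 0.259 CPM by plain totals, a limit that covers counting error only. Log2 CPM had a prior count of 2. The immediate-early score was compared by two-sided exact permutation tests (SciPy 1.17.1) and related to each member by 100000 permutations within groups of the deviations from group means.

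Alternatives were DESeq2 1.42.0, limma-voom (limma 3.58.1), library size alone, robust dispersion, no filter, stricter limits, the compared groups alone, the replicate block, a score or naming scheme as covariate, the first naming scheme alone, and each sample left out. Leaving out samples for the related genes in CLEC4F- macs was added after seeing the data. On simulated data with 4-fold changes in 200 of 13421 genes, 92% of the changed genes were recovered for WD against SD ResKCs at 24 weeks.

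The 8 members, the score, the lists of related genes and the cell type markers were chosen with earlier results of these data known. For each member the 3 genes with the highest Pearson r of log2 CPM over all samples were named, and genes of the lists were named where called or where a result needs their level. The mice's replicate numbers were not treated as pairs: between same-numbered samples the mean correlation of deviations from group means was -0.11 to 0.12 per comparison, and in no comparison was every pair over 0.1.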

Additional observations from a re-analysis of the deposited data

Results flagged for a closer look

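Of 46 sets of values (a member in a group of 4 to 10 samples), 2 held a sample far from the others, and chance gives about 1 in 20. Cxcl13 in SD ResKC replicate 6 at 24 weeks had a log2 CPM of 10.63 (1588 CPM), against 8.65 to 9.39 in the other 5 samples. Without that sample Cxcl13 stayed called between the diets at 24 weeks. Marco was also highest there (4076 CPM), and its part in the Cxcl13 value was not tested.

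Cxcl3 in SD ResKC replicate 7 at 12 weeks had a log2 CPM of -1.79 from 2 counts, and the other 6 samples of that group had 0 counts. It is the sample with the lowest Cxcl1, Cxcl2 and immediate-early score (6.12) of its group. No member differed in its diet effect between the times by the test of that difference.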

How the results depend on the processing

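Values below are log2 fold changes unless named otherwise, and where a value changed the cause was not tested. Beside the single-sample fits, 399 values kept their direction and side of the limit, 18 lost the call, 12 gained it and 27 changed sign. With each sample left out these were 468, 23, 10 and 23. The calls of Cxcl13, Pf4 and Cxcl3 between CLEC4F- macs and WD ResKCs held in all of these settings, except that Cxcl3 was not fitted in the first naming scheme alone, where the filter removed it. In the main fit Cxcl3 passed that filter only through moKC and CLEC4F- mac samples.

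Of the 8 members, 4 were called between the diets at 24 weeks, 2 with limma-voom, with either score (6 or 4 genes) or with the naming scheme as covariate, and 0 under the stricter limits of 1.5 for the log2 fold change and 0.01 for adjusted p. Between moKCs and WD ResKCs 0 became 1 with DESeq2, limma-voom or either score, and 2 in the first scheme alone. Between WD ResKCs at 24 and 12 weeks 0 became 1 with DESeq2, library size alone or the 6-gene score, and 2 with the 4-gene score. With each sample left out, the counts were 2 to 4 for the diet at 24 weeks, 0 to 1 for moKCs against ResKCs, 3 to 5 for CLEC4F- macs against ResKCs, 0 to 2 for CLEC4F- macs against moKCs and 0 to 1 for the WD at both times.

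Signs changed as follows with the 6-gene and 4-gene score. For the diet at 24 weeks Cxcl1 was at 0.13 and 0.23, Cxcl2 at 0.30 and 0.60 and Cxcl9 at 0.38 and 0.28, and Cxcl12 at 12 weeks at 0.14 and 0.19. For CLEC4F- macs against ResKCs Cxcl1 was at -0.0012 and -0.22, Cxcl9 at -0.098 and -0.059 and Cxcl10 at -0.35 and -0.44, and against moKCs Cxcl2 was at -0.11 and -0.15. With the naming scheme as covariate Cxcl12 at 12 weeks was at 0.013, Cxcl9 at 24 weeks at 0.022 and Cxcl1 in CLEC4F- macs against moKCs at 0.083. With library size alone these 3 were at 0.0097, 0.030 and 0.040, and Cxcl1 was at 0.22 with limma-voom. In the first scheme alone Cxcl1 was at 0.86 there, Cxcl13 at 0.30 in moKCs against ResKCs and Pf4 at -0.020 for the difference of diet effects.

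With each sample left out, signs changed for Cxcl12 (diet at 12 weeks, -0.28 to 0.14), Cxcl9 (diet at 24 weeks, -0.27 to 0.047), Cxcl1 (moKCs against ResKCs, -0.073 to 1.77, and CLEC4F- macs against moKCs, -0.70 to 1.20), Cxcl10 (CLEC4F- macs against ResKCs, -0.013 to 0.17) and Cxcl2 (CLEC4F- macs against moKCs, -0.20 to 0.48). The immediate-early score differed by -1.93 to -1.39 between the diets at 24 weeks (adjusted p = 0.0455 by the exact permutation test without SD replicate 1) and by 0.85 to 1.31 between CLEC4F- macs and ResKCs (adjusted p = 0.0455 by that test without WD ResKC replicate 5). In the 24 ResKC samples r with the score was 0.37 for Cxcl13 (permutation test, adjusted p = 0.0715) and -0.59 for Cxcl3 (adjusted p = 0.00064, from counts of 0 to 5), and with the 4-gene score r was 0.30 for Cxcl9 (adjusted p = 0.123).

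With the replicate block 3 members were called between the diets at 24 weeks, without Cxcl3 (adjusted p = 0.0508), and Cxcl1 was at 0.15 in CLEC4F- macs against moKCs. The block called 86 of all genes between the diets at 12 weeks against 5 without it, and changed no other count of members. It joins same-numbered samples, which need not share a mouse and for moKCs can differ in naming scheme. At this depth a Cxcl3 level under about 0.2 CPM in a sample cannot be told from 0.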
